A study of Mus musculus with 17 samples.

Results

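The genes described here are 9 genes of the myelin sheath, Mbp, Mobp, Mog, Mag, Cnp, Mal, Opalin, Cldn11 and Ugt8a, of the 36293 genes in the tables of bulk nuclear RNA and the 37608 genes in the tables of single nuclei. They were chosen by name, and all 9 were found in both kinds of table. Their values were followed across classes of cortical nuclei and between mice exposed to chronic unpredictable stress (CUS) and control mice. The genes were picked with results of the bulk comparison known. Whether other comparisons were also in view is not recorded.

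Myelin is the lipid-rich membrane that oligodendrocytes wrap around axons, and it speeds the conduction of impulses and supports the axon. Oligodendrocyte precursors leave the cell cycle, pass through a newly formed stage and then switch on the proteins and lipids of the sheath. Mbp and Mobp encode basic proteins that hold the cytoplasmic faces of the membrane together. Mog and Mag encode surface proteins, on the outermost layer of the sheath and on the layer that faces the axon. Cnp encodes a phosphodiesterase of the uncompacted channels of myelin, Mal a lipid raft protein that takes part in membrane sorting, and Opalin a glycoprotein of oligodendrocyte membranes. Cldn11 encodes the claudin of the tight junctions of myelin, and Ugt8a the enzyme that makes galactosylceramide, a main lipid of the sheath.

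Nuclear RNA from punches of the medial prefrontal cortex (mPFC) was sequenced in bulk from 4 control and 5 CUS mice, and single nuclei of the neocortex were sequenced by sNucDrop-seq from another 4 control and 4 CUS mice. All were male C57BL/6 mice (the J substrain in the study's methods), and CUS began at 9 to 10 weeks of age and lasted 12 days with 3 stressors a day, while control mice were kept in another room and handled. Bulk tissue was taken at postnatal day 90, after behavioural tests and as a punch over the midline that can take in neighbouring tissue, and tissue for single nuclei at postnatal day 80. The bulk files hold 26188825 to 30525015 reads on genes per mouse. After filters, 26730 of 40000 barcodes were kept as nuclei, 1930 to 4235 per mouse, and any 2 libraries shared at most 2 of these barcodes. The tissue labelled neocortex also gave 1792 striatal projection neuron-like nuclei, a type of neuron that lies below the cortex. The study's methods state that the mice for single nuclei came in 2 batches, each with 2 control and 2 CUS mice, that batch had a strong effect on expression, and that its own model held a batch term. The labels do not say which mouse was in which batch, so every comparison of single nuclei here is without that term, and the part of batch was not tested.

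Nuclei were clustered without the 9 genes, and clusters were named by markers that do not include them. One cluster of 620 nuclei was mature oligodendrocyte-like, with 11 of 11 markers enriched and Aspa, Prr5l and St18 among its leading genes. A cluster of 79 nuclei was newly formed oligodendrocyte-like and one of 439 nuclei was oligodendrocyte precursor-like. The label of myelin genes held in these data, since each of the 9 genes had its highest level in mature oligodendrocyte-like nuclei, by 56.7-fold (Cnp) to 263-fold (Mog) over the median of the 33 classes outside the lineage. Levels by class are in counts-per-million (CPM), the UMIs of a gene scaled to the summed UMIs of the class, and their intervals are exact Poisson intervals at 95% that cover counting error only. They are given as a description, without a test.

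Along the lineage the 9 genes are described in 2 groups, drawn from these values and so not tested. Mbp, Cnp, Cldn11, Ugt8a and Mag were already abundant in newly formed oligodendrocyte-like nuclei. Mbp stood at 4024 CPM there (3670 to 4404), against 4234 (4096 to 4377) in mature and 142 (112 to 178) in precursor-like nuclei, so its newly formed level was 95% of the mature level. Cnp stood at 638 (502 to 800) in newly formed and 804 (744 to 867) in mature nuclei, which is 79.4% of the mature level. Cldn11 reached 64.2%, with 732 (585 to 904) against 1140 (1069 to 1215). The intervals of Mbp and of Cnp overlapped between the newly formed and mature classes, and those of Cldn11 did not. In single mice the mature level of Cldn11 ran from 691 to 1542 CPM, a spread that its counting interval does not cover.

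Ugt8a, the galactosylceramide enzyme, was the member with the highest relative level in precursors. It stood at 157 (125 to 195) CPM in precursor-like, 357 (258 to 483) in newly formed and 561 (511 to 614) in mature nuclei. The counting intervals of these pooled levels did not overlap. In single mice its mature level ran from 291 to 708 CPM, a spread that those intervals do not cover. Its precursor level was 28% of the mature level, and that of the other 8 genes was 1.61% to 6.13%. Mag, which meets the axon, stood at 64.4 (44.6 to 90.0) in precursor-like, 1217 (1025 to 1433) in newly formed and 2473 (2367 to 2582) in mature nuclei.

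Mobp, Mog, Opalin and Mal were low until the mature class. Mobp stood at 162 (97.3 to 252) CPM in newly formed and 1591 (1506 to 1679) in mature nuclei, so its newly formed level was 10.2% of the mature level. Mog stood at 85.1 (40.8 to 156) and 1491 (1409 to 1577), a newly formed level of 5.71%. Opalin and Mal had 1 UMI each among the 117534 UMIs of newly formed nuclei, or 8.51 CPM (0.215 to 47.4), where the mature nuclei held 708 (652 to 767) and 2064 (1968 to 2164) CPM. The newly formed class rests on 79 nuclei, 4 to 15 per mouse.

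**Figure D1:**
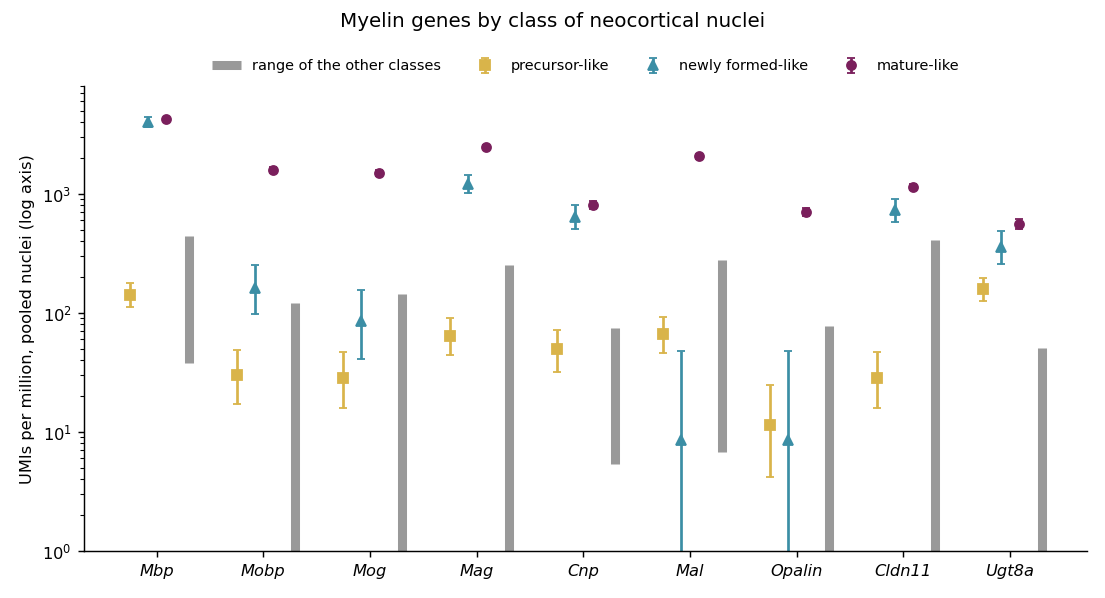
Levels of the 9 myelin genes in oligodendrocyte precursor-like (squares), newly formed (triangles) and mature oligodendrocyte-like nuclei (circles), as CPM of pooled nuclei on a log axis with exact Poisson intervals, and the range over the 33 other classes (grey bars, which run to the foot of the axis where a class held none). Mbp is nearly level between the newly formed and mature classes, and Mal is at 8.51 in the newly formed class and 2064 in the mature class.

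Per nucleus the same contrast was visible at equal depth. After each nucleus was thinned to 600 UMIs, with none left out, mature oligodendrocyte-like nuclei held a median of 5 of the 9 genes, newly formed nuclei 2, and precursors and all other nuclei 0. At least 1 UMI of Mbp was found in 88.7% of the thinned mature nuclei, of Mag in 72.3%, of Mal in 62.6% and of Ugt8a in 29.4%. Before thinning these shares were 97.9%, 89.5%, 78.5% and 47.4%. In astrocyte-like and other nuclei outside the lineage, 92.2% held none of the 9 genes after thinning. The median UMI count was 1174 in mature, 1298 in newly formed and 1090 in precursor-like nuclei.

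Not all UMIs of these genes came from the lineage. Mature nuclei made up 2.32% of the kept nuclei and held 69.8% of all Mog UMIs, 69.3% of Opalin, 65.8% of Mag and 39.7% of Cnp. Microglia-like nuclei, 235 in number, held all 9 genes at 6.8% to 10.9% of the mature level, with Mbp at 442 (386 to 503) CPM, and astrocyte-like nuclei held them at 1.92% to 6.16%. Cldn11 was at 413 CPM in a cluster of 59 nuclei led by Slc47a1, and Mal was at 281 in the 58 nuclei with markers of both endothelial cells and pericytes or fibroblasts. Microglia-like nuclei also had 9 of the 11 mature oligodendrocyte markers enriched. The part of free RNA and of doublets in these levels was not tested.

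Among the genes whose levels were most like the mean of the 9 across the 36 classes were Rnf13 (Pearson r of 0.851), Rnf220 (0.845), Cdc37l1 (0.824) and Scd2 (0.823), a desaturase of fatty acids. These values come from 5019 genes compared over classes that share libraries, and they are a description. Sox10, the transcription factor of the whole lineage, ran otherwise, at 326 in precursor-like, 383 in newly formed and 197 in mature nuclei. Among the members, Mog was most like the mean of the other 8 (r of 0.939) and Mal least (0.677).

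Promoter sequences are shown for members of both patterns, Mag and Cnp with newly formed levels of 49.2% and 79.4% of the mature level and Mobp and Mog with 10.2% and 5.71%. They are RefSeq sequences of build GRCm38.p6 on the strand of the gene, chr7:30914874-30915113 (minus strand), chr11:100574689-100574903 (plus), chr9:120149492-120149706 (plus) and chr17:37023399-37023648 (minus). Each ends at the base before the gene as the bulk files place it. Capitals mark matches on either strand to the letters ACAAAG or ACAATG, which SOX factors bind, and CTGGCAC or CTGGTAC, which Myrf binds.
Mag: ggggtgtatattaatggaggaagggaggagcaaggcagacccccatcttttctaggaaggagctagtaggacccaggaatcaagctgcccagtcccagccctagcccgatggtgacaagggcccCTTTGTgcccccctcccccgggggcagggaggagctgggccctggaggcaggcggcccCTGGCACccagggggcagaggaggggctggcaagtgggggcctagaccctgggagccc
Cnp: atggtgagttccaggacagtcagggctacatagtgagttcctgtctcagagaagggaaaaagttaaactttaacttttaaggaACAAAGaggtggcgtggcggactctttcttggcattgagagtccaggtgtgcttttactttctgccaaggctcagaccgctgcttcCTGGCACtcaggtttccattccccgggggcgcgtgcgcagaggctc
Mobp: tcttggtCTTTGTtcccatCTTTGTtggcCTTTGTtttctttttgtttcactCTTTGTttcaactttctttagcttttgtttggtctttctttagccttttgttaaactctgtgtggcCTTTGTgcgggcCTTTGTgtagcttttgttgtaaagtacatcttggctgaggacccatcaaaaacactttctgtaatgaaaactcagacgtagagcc
Mog: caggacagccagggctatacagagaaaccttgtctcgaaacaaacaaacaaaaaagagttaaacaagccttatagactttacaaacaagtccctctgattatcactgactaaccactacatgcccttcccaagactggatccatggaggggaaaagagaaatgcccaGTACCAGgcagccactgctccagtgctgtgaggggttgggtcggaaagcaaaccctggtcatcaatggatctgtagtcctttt

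Mobp held 6 matches to the SOX letters, Mag and Cnp 1 each and Mog 0. Mag, Cnp and Mog each held 1 match to the Myrf letters and Mobp 0. Among members whose sequence is not printed, Opalin held 1 match to the SOX letters and 0 to the Myrf letters. Mal, Cldn11 and Ugt8a held 0 matches to either. Promoters on chromosome 18 were left out for the members, which removed Mbp, but not for the comparison set. Of the other 8 members, 4 held the SOX letters and 3 the Myrf letters, against 25.2% and 5.93% of 32851 promoters of 250 bases. The member windows were 215 to 250 bases long because bases inside the gene were dropped. No match was found for the E-box CAGCTG in the 8, against 13% of all promoters. A match is only a run of letters, and binding was not measured.

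In bulk nuclear RNA of the mPFC, all 9 myelin genes had lower means in CUS than in control mice, with fitted log2 fold changes from -0.76 (Mobp) to -0.25 (Mal) and a median of -0.52. The median over all 18394 genes tested was 0.01, and 48.7% of them lay below 0. One member, Ugt8a, was called lower and none higher by edgeR's quasi-likelihood test at an FDR of 0.05, where 3.29% of all genes were called, 2.13% lower and 1.16% higher. The groups overlapped for all 9 genes, where 8.75% of all genes did not overlap, 4.69% lower in CUS mice. Since these genes were chosen with results of this comparison known, the counts are a description and carry no weight as a test. In bulk RNA, fewer oligodendrocytes in the punch and less of this RNA per oligodendrocyte cannot be told apart. The part of neighbouring tissue taken in by the punch was not tested.

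Of the genes for basic proteins, Mbp (Ensembl ENSMUSG00000041607, mm10 chr18:82475146-82585637) stood at 112, 179, 296 and 242 CPM in control mice 1 to 4 and at 137, 122, 160, 149 and 154 in CUS mice 1 to 5, the order kept below. Control replicate 1 was below every CUS mouse and the other control mice were above every CUS mouse. The log2 fold change was -0.52 ± 0.20 (SE, n = 4 and 5).

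Mobp (chr9:120149707-120181484) stood at 40.1, 69.4, 111 and 115 CPM in the control mice and at 31.9, 43.5, 53.4, 57.5 and 61.1 in the CUS mice. Here control replicate 1 lay inside the CUS range, and the other control mice again lay above it. The log2 fold change was -0.76 ± 0.26 (SE).

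For the surface proteins, Mog (chr17:37010743-37023398) stood at 4.87, 8.42, 10.2 and 14.6 CPM in control and at 6.61, 5.75, 5.62, 7.81 and 6.78 in CUS mice. Mag (chr7:30899176-30914873) stood at 10.7, 16.1, 24.5 and 24.4 CPM in control and at 13.2, 12.7, 14.7, 12.0 and 14.4 in CUS mice. Both had control replicate 1 as the lowest of the 9 mice and the other control mice above all CUS mice. Their log2 fold changes were -0.55 ± 0.23 and -0.50 ± 0.19 (SE).

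Cnp (chr11:100574904-100591729) stood at 10.975, 16.0, 24.8 and 20.8 CPM in control mice and within 12.1 to 13.7 in all 5 CUS mice, with a log2 fold change of -0.49 ± 0.17. Cldn11 (chr3:31149920-31164324), the tight junction gene, stood at 7.96, 10.6, 15.1 and 17.9 CPM in control and at 8.91, 7.45, 8.68, 7.78 and 9.25 in CUS mice, with a log2 fold change of -0.61 ± 0.19. CUS mice were close together for both genes while the highest control mouse was more than 2-fold above the lowest.

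Ugt8a (chr3:125865271-125938619) stood at 19.2, 24.5, 25.5 and 29.5 CPM in control and at 14.5, 18.2, 19.5, 17.05 and 13.6 in CUS mice. It came nearest to a separation of the groups, as only CUS replicate 3 (19.5) exceeded control replicate 1 (19.2). Its log2 fold change was -0.58 ± 0.13 (SE), the smallest error of the 9. The call was lost on leaving out control replicate 2 or 4 or CUS replicate 1, 4 or 5, with log2 fold changes of -0.47 to -0.59.

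Mal (chr2:127633226-127656695) and Opalin (chr19:41062474-41077113) had the smallest differences. Mal stood at 23.6, 29.8, 35.98 and 50.1 CPM in control and 25.9, 26.8, 32.3, 32.8 and 29.4 in CUS mice (log2 fold change -0.25 ± 0.17), and Opalin at 4.37, 4.61, 6.20 and 6.08 in control and 3.20, 4.89, 4.10, 4.97 and 2.99 in CUS mice (-0.40 ± 0.17). For these genes control replicate 2 also lay within the CUS range. Without control replicate 4 the value of Mal was -0.01.

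**Figure D2:**
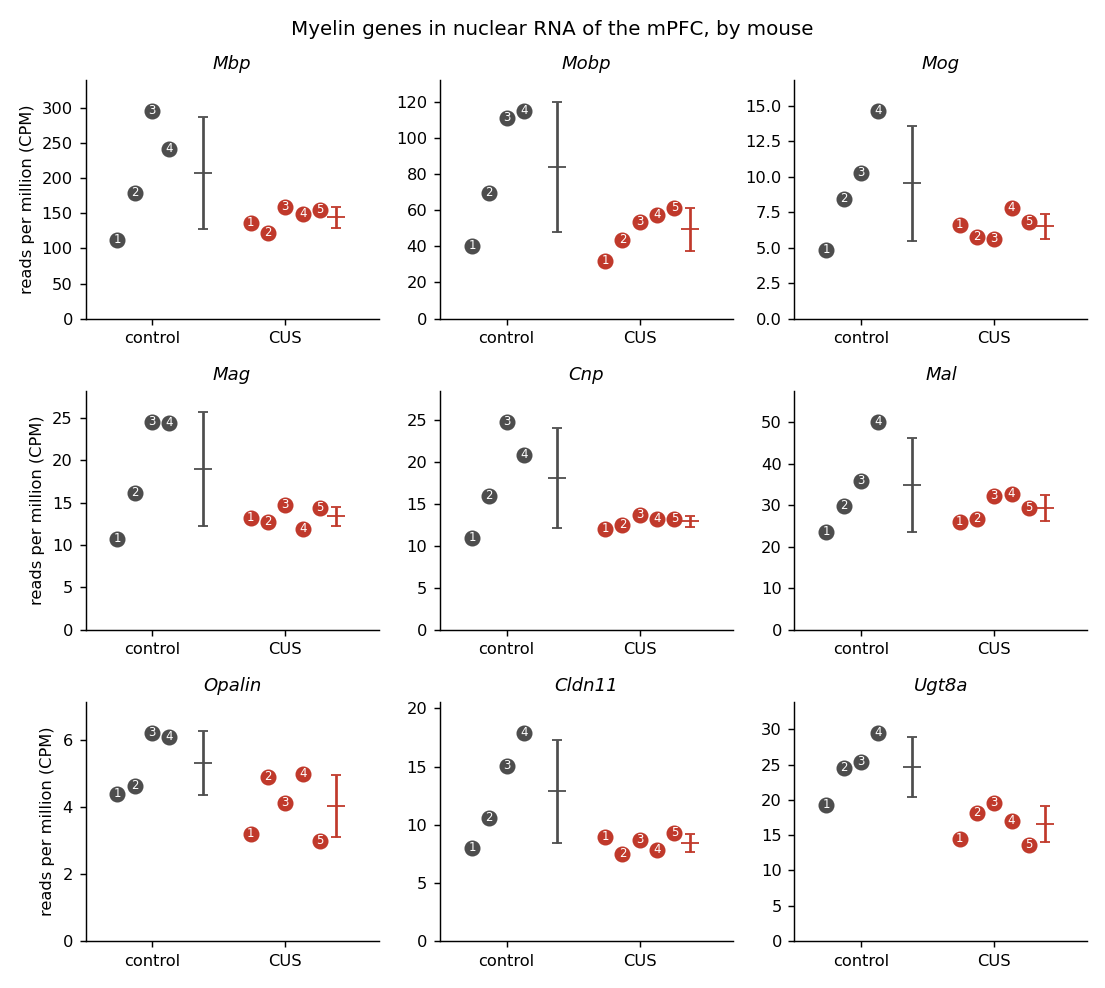
Counts-per-million (CPM) of the 9 myelin genes in mPFC nuclear RNA of 4 control (grey) and 5 CUS mice (red), 1 point per mouse numbered by replicate, with mean ± SD at the side. Control replicates 3 and 4 lie above all CUS mice for all 9 genes, and control replicate 1 lies within or below the CUS range for all 9.

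Leaving out control replicate 1 changed most of these calls. That mouse was the lowest of the 9 mice for 5 members and within the CUS range for the other 4, while control replicates 3 and 4 were above all CUS mice for all 9. Without it, 7 of the 9 members were called lower, the exceptions being Mal and Opalin, where 3.38% of 18607 genes were called, 2.47% lower, and the log2 fold changes ran from -0.40 (Mal) to -0.99 (Mobp). Without control replicate 4 the values of Mog (-0.26), Mag (-0.35), Cldn11 (-0.40) and Mobp (-0.56) were nearest to 0, and without control replicate 3 those of Mbp (-0.31) and Cnp (-0.31). Without control replicate 2 or 4, 0 members were called, where 0.58% and 1.56% of all genes were called lower. The spread between mice was larger in control mice, with a coefficient of variation of 17.1% to 42.6% over the 9 genes against 5.01% to 23.9% in CUS mice, and was larger in control mice for 8 of the 9.

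The sum of the 9 genes was 234, 359, 549 and 520 CPM in control and 253 to 312 CPM in CUS mice. The 11 markers of mature oligodendrocytes that are not members moved with it, at 218, 309, 417 and 466 CPM in control and 218 to 276 in CUS mice. The log2 ratio of the sum of members to the sum of these markers was 0.22 ± 0.13 (SD, n = 4) in control and 0.21 ± 0.12 (n = 5) in CUS mice, a difference below the spread between mice. All 11 markers had a log2 fold change below 0, with a median of -0.49, and 1 was called lower, as were 2.13% of all genes.

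Per kilobase of gene, over the spans of 12.7 to 110.5 kb given by the files, control levels in bulk RNA ran from 2.64 ± 1.12 CPM per kb (Mobp) through Mbp (1.88 ± 0.719), Mal (1.49 ± 0.483), Mag (1.21 ± 0.429), Cnp (1.08 ± 0.355), Cldn11 (0.894 ± 0.309) and Mog (0.753 ± 0.321) to Opalin (0.363 ± 0.0652) and Ugt8a (0.336 ± 0.0575; SD, n = 4). Neighbours in this order differed by less than the larger SD of the pair, except Mog and Opalin. Exons of the GENCODE M21 annotation cover 6.18% (Ugt8a) to 25.9% (Mag) of these spans. Whether the bulk counts include intronic reads is not given, so the order holds for whole spans and can differ over exon length. Mobp overlaps Gm38642 on the same strand and Cnp overlaps Dnajc7 on the opposite strand, so reads of these pairs may be shared.

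Other genes of the pathway were followed in lists. The lists were chosen with earlier results of these data known, so their counts are a description and carry no weight as a test. In the fit on all bulk mice 2.13% of all genes were called lower. Of 20 other myelin genes, 19 had a log2 fold change below 0 (median -0.34), and none was called by edgeR's quasi-likelihood test, with 10 of 20 at an unadjusted p under 0.05, as were 21.5% of all genes. By the likelihood ratio test and by DESeq2 4 were called lower, Aspa, Qdpr, Gjb1 and Gjc3, where 4.33% and 4.67% of all genes were. Aspa alone was called lower with library totals in place of TMM factors and without the filter on low counts, where 3.37% and 1.67% of all genes were. Without control replicate 1, 8 genes were called lower, where 2.47% of all genes were. The largest values were those of Gjb1, a gap junction gene (-0.87 ± 0.23, adjusted p = 0.0616), Aspa, which releases acetate from N-acetylaspartate (-0.70 ± 0.18, adjusted p = 0.0525), and Gjc3 (-0.60 ± 0.20, adjusted p = 0.106). Gjb1 stood at 0.83 to 1.02 CPM in control and 0.276 to 0.629 in CUS mice, with no overlap.

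Among 11 transcription factors of the lineage, 10 lay below 0 and 2 fell, St18 (-0.73 ± 0.18, adjusted p = 0.0461) and Tcf7l2 (-0.43 ± 0.11, adjusted p = 0.0478). Myrf, the factor that switches on myelin genes, stood at -0.49 ± 0.15 (adjusted p = 0.0907), Nkx6-2 at -0.47 ± 0.36 (adjusted p = 0.477) and Sox10 at -0.35 ± 0.14 (adjusted p = 0.167). Both calls were lost without control replicate 2, 3 or 4 or CUS replicate 2, 3, 4 or 5. Without control replicate 1, 4 factors were called lower, where 2.47% of all genes were. Myrf was called lower without that mouse (-0.63, adjusted p = 0.0184), with the likelihood ratio test (adjusted p = 0.0400) and with DESeq2 (adjusted p = 0.0326). Of 7 newly formed oligodendrocyte genes 5 lay below 0 (median -0.19) and Bcas1 fell (-0.46 ± 0.11, adjusted p = 0.0395), beside Enpp6 at -0.49 ± 0.17 (adjusted p = 0.116) and Neu4 at 0.29 ± 0.14 (adjusted p = 0.252). Of 7 precursor genes 5 lay below 0 (median -0.08) and Lhfpl3 fell (-0.56 ± 0.10, adjusted p = 0.0159), with Vcan at -0.24 ± 0.07 and Pdgfra at -0.15 ± 0.08 not called. Of the newly formed genes 2 were called without control replicate 1, 1 without control replicate 3 and 0 without any other mouse. Of the 7 precursor genes 2, Vcan and Lhfpl3, were called without control replicate 1, with the likelihood ratio test and with DESeq2. None was called without control replicate 2 or CUS replicate 4 or 5. Of all genes, 2.47% were called lower without control replicate 1 and 4.32% without control replicate 3.

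Myelin needs much cholesterol, which oligodendrocytes make themselves, and a list of genes of its synthesis was followed too. All 19 of them lay below 0 (median -0.24) and 6 were called lower, where 2.13% of all genes were. Among the 6 were Idi1 (-0.65 ± 0.15, adjusted p = 0.0399), Msmo1 (-0.43 ± 0.08, adjusted p = 0.0159), Cyp51 (-0.41 ± 0.07, adjusted p = 0.0159), Hmgcs1 (-0.40 ± 0.07, adjusted p = 0.0162) and Sqle (-0.39 ± 0.08, adjusted p = 0.0208). These 5 encode enzymes of cholesterol synthesis. The summed level of the 19 was 740, 728, 683 and 707 CPM in control mice and 595 to 621 in CUS mice. These sums did not overlap, and control replicate 1, lowest in most members, was here the highest. Gene by gene, 6 of the 19 did not overlap, where 4.69% of all genes were without overlap and lower in CUS mice. This list was also chosen with earlier results known, so these counts are a description. Without any 1 mouse all 19 stayed below 0 and 1 to 8 were called. Only 1 was left without control replicate 2 or CUS replicate 5, where 0.58% and 0.565% of all genes were called lower. The 8 were called without control replicate 3, where 4.32% of all genes were called lower. Other cells of the cortex also make cholesterol, and the cell that carried this difference was not tested.

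Of 9 genes of the paranode and of axonal partners of myelin, 4 lay below 0 (median 0.04). Rtn4, which encodes the growth inhibitor Nogo, fell (-0.30 ± 0.07, adjusted p = 0.0394), and Lingo1 (0.30 ± 0.12, adjusted p = 0.17) and Nfasc (0.20 ± 0.10, adjusted p = 0.263) were not called. No gene of this list was called without control replicate 2 or 4 or CUS replicate 1, 3, 4 or 5. Without control replicate 3, Lingo1, Nfasc and Cntnap1 were called higher beside Rtn4 lower, where 3.77% of all genes were called higher.

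**Figure D3:**
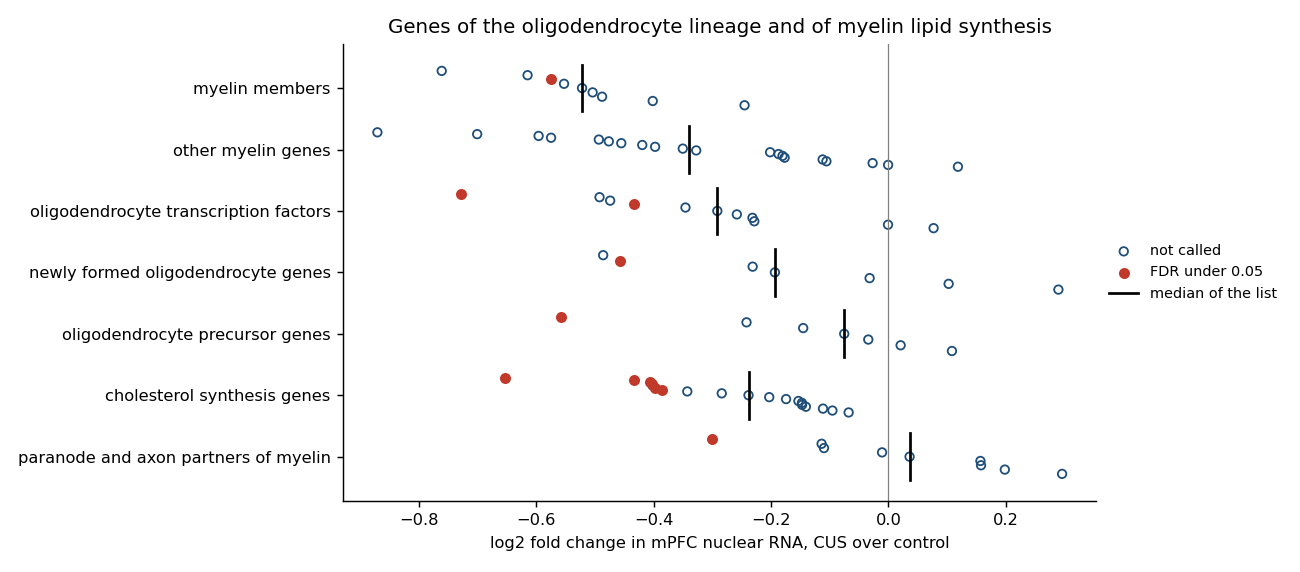
Log2 fold change of CUS over control mice in mPFC nuclear RNA for each gene of 7 lists, with genes called at an FDR of 0.05 filled and the median of each list as a bar. All 9 myelin genes and all 19 cholesterol synthesis genes lie below 0, and the calls number 1 and 6.

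Markers of other cells also differed between the groups. Of all genes, 1.16% were called higher and 2.13% lower in this fit. The summed striatal projection neuron markers were at 50.3, 57.1, 71.8 and 203 CPM in control and 42.1 to 60.9 CPM in CUS mice, highest in control replicate 4, and all 8 lay below 0. Excitatory neuron markers lay above 0 for all 6, 2 of them called. Of 8 astrocyte markers 7 lay below 0 and 3 were called lower. All 5 inhibitory neuron markers lay below 0 (median -0.32), none of them called, with sums of 125 to 203 CPM in control and 113 to 174.5 in CUS mice. Of 6 oligodendrocyte precursor markers 5 lay below 0 and 1 was called lower, and their sums did not overlap, at 342 to 421 CPM in control and 272 to 335 in CUS mice. These 6 are also among the 7 precursor genes above, whose sums overlapped with Pcdh15 included, at 1163 to 1531.5 and 1276 to 1489 CPM. All 3 choroid plexus markers tested lay below 0 and 1 was called lower, with sums of 3.06 to 7.26 and 2.58 to 3.27 CPM. No microglia, endothelial or pericyte and fibroblast marker was called. The part of these in the values of the myelin genes was not tested.

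In single nuclei from other mice, none of the 9 genes was called between groups, in a model without the batch term. Summed over all kept nuclei of a mouse, the 9 together stood at 288, 432, 364 and 320 CPM in control and at 405, 243, 334 and 313 in CUS mice, in order of replicate. The groups overlapped almost fully. Only Mbp, Mag and Mal passed the filter on low counts, and none of them was called at an FDR of 0.2, where 0.0199% of 5022 genes were called, all higher in CUS mice. Of these 3 genes 2 lay below 0 (51.1% of all genes), 0 had an unadjusted p under 0.05 (8.44% of all genes), and for 0 did the groups not overlap (4.78% of all genes, 2.95% lower in CUS mice).

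Mbp stood at 114, 147, 131 and 118 CPM in control and 127, 91.2, 119 and 110 in CUS mice, a log2 fold change of -0.18 (95% interval -0.44 to 0.08, adjusted p = 0.632, edgeR). Mag had a log2 fold change of 0.03 (-0.43 to 0.49, adjusted p = 0.965) and Mal of -0.10 (-0.65 to 0.45, adjusted p = 0.905). Without the filter, the other members ran from -0.35 (Opalin) to 0.05 (Cldn11), and none was called. CUS replicate 2 was the lowest of the 8 mice for 8 members and control replicate 2 the highest for 6. The value of Mbp ran from -0.25 without CUS replicate 1 to -0.09 without control replicate 2 or CUS replicate 2, and was -0.38 with at least 1000 genes per nucleus.

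Few genes of the other lists passed the filter over all kept nuclei, and none was called on all 8 mice. Of 7 cholesterol synthesis genes tested 1 lay below 0 (median 0.08), and the sum of the 19 was 561 to 614 CPM in control and 581 to 647 CPM in CUS mice, with overlap and a higher mean in CUS mice. The difference from bulk RNA was not tested. Of 8 paranode and partner genes 3 lay below 0, of 2 other myelin genes 0, of 2 precursor genes 1 and of 1 transcription factor 1. Without CUS replicate 2 Srebf2, a transcription factor in the cholesterol list, and the partner genes Lingo1 and Rtn4r were called higher and Lhfpl3 lower, where 8.76% and 7.82% of all genes were called in these directions. Without the filter on low counts 9630013A20Rik was called higher. The summed striatal projection neuron markers stood at 543 to 615 CPM in control and 283 to 551 in CUS mice, and their part in these values was not tested.

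The number of oligodendrocytes caught differed between mice. Mature oligodendrocyte-like nuclei made up 0.888%, 4.72%, 1.87% and 2.18% of the kept nuclei in control mice and 2.92%, 1.3%, 1.84% and 2.00% in CUS mice. The means were 2.41% ± 1.63 and 2.01% ± 0.674 (SD, n = 4 each), and a two-sided exact permutation test gave p = 0.771. Control replicate 2 alone held 199 of the 620 nuclei, and without it the difference turned to 0.37 percentage points higher in CUS mice (exact permutation p = 0.514).

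**Figure D4:**
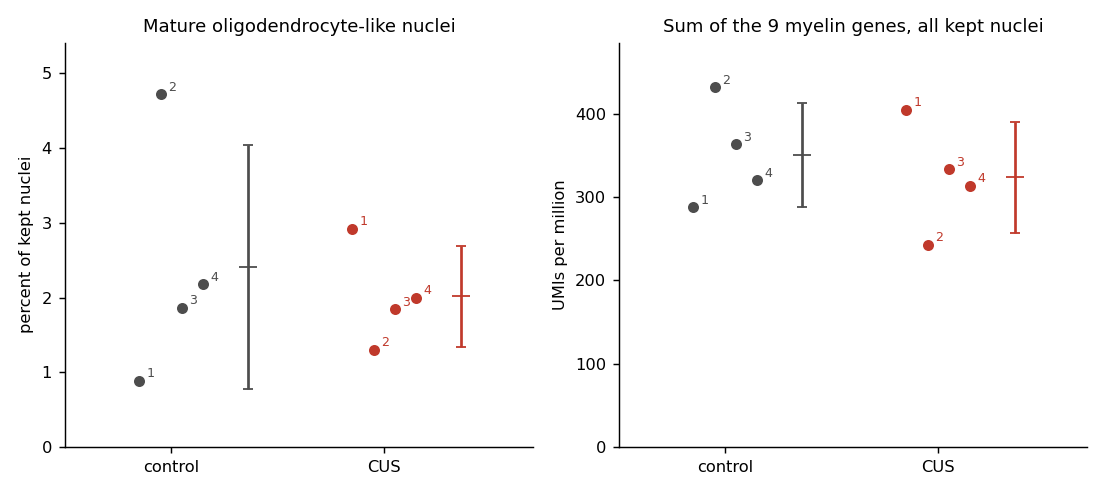
Share of mature oligodendrocyte-like nuclei (left, percent of kept nuclei) and the summed level of the 9 myelin genes over all kept nuclei (right, CPM) in 4 control and 4 CUS mice, 1 point per mouse numbered by replicate, with mean ± SD at the side. Control replicate 2, at 4.72% and 432, is the highest in both panels, and the groups overlap.

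Within mature oligodendrocyte-like nuclei, the 9 genes did not separate the groups either. Counts summed per mouse were tested on 2658 genes, and 0 were called at an FDR of 0.2 by edgeR's quasi-likelihood test, so percent called was 0%, with 87 genes (3.27%) at an unadjusted p under 0.05. The log2 fold changes of the members ran from -0.09 (Opalin) to 0.26 (Cldn11), and 3 of 9 lay below 0, as did 48% of all genes. That count was 6 without the doublet filter, 5 with at least 1000 genes per nucleus and 0 to 6 with a mouse left out. The groups overlapped for all 9, where 2.33% of all genes did not overlap, 1.28% lower in CUS mice. The adjusted p was 1.00 for each of the 9 (edgeR). Depth was small, with 37399 to 245902 UMIs per mouse in this class.

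Mbp stood at 7125, 3884, 3872 and 3375 CPM in control and 3838, 3471, 4774 and 5134 in CUS mice, with a log2 fold change of -0.07 (interval -0.59 to 0.44). Ugt8a stood at 544, 636, 508 and 334 in control and 527, 291, 708 and 609 in CUS mice (0.07, interval -0.49 to 0.63). Mobp stood at 2747, 1261, 1343 and 1368 in control and 1785, 1472, 1813 and 2029 in CUS mice (0.12, interval -0.41 to 0.65). Control replicate 1, with 26 nuclei, held the highest value for 5 members, and control replicate 4, with 42, the lowest for 4.

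The intervals of the other 6 members all contained 0 as well. Cldn11 had 0.26 (-0.27 to 0.79), Mag 0.23 (-0.31 to 0.76), Mal 0.12 (-0.48 to 0.73), Cnp 0.06 (-0.54 to 0.66), Mog -0.05 (-0.58 to 0.48) and Opalin -0.09 (-0.62 to 0.45). The interval held the bulk value for 5 genes, Mbp, Mog, Cnp, Mal and Opalin, and ended above it for Mobp, Mag, Cldn11 and Ugt8a. That count leaves out the error of the bulk values. The difference between the 2 experiments was not tested, and they differ in tissue, age and mice. They also differ in measure, since bulk values are scaled to RNA of the whole tissue and these to UMIs of mature nuclei only.

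**Figure D5:**
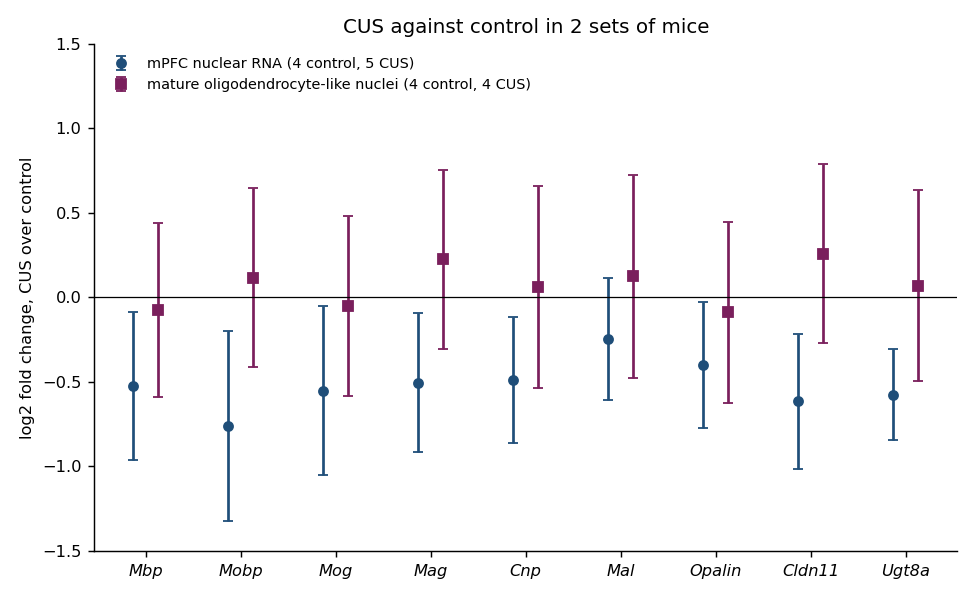
Log2 fold change of CUS over control mice with 95% intervals for the 9 myelin genes in mPFC nuclear RNA (circles) and in mature oligodendrocyte-like nuclei summed per mouse (squares). All 9 circles lie below 0, from -0.76 to -0.25, and the squares lie between -0.09 and 0.26 with every interval across 0.

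The remaining lists within mature nuclei gave no call by edgeR's quasi-likelihood test on all 8 mice. Of 19 other myelin genes tested 4 lay below 0, with Ninj2 at 0.46 ± 0.38 and Gal3st1, which makes sulfatide, at 0.42 ± 0.37. This tally depended on the filters, with 9 of 19 below 0 without the doublet filter, 12 of 20 with at least 1000 genes per nucleus and 2 to 8 with a mouse left out. Of 8 transcription factors 3 lay below 0 (6 with at least 1000 genes per nucleus), of 4 cholesterol synthesis genes 0, of 3 newly formed genes 0, of 5 paranode and partner genes 1 and of 1 precursor gene 0. With at least 1000 genes per nucleus 3 of 7 cholesterol synthesis, 2 of 3 newly formed and 3 of 6 paranode and partner genes lay below 0, and without the doublet filter 2 of 6 cholesterol synthesis and 2 of 7 paranode and partner genes. Values in these lists included 2.25 ± 0.57 for 9630013A20Rik, 0.96 ± 0.40 for Sc5d, an enzyme of cholesterol synthesis, -0.78 ± 0.42 for Omg and 0.50 ± 0.33 for Pcdh15. The adjusted p was 1.00 for each (edgeR). 9630013A20Rik was called higher without control replicate 1 (2.82, adjusted p = 0.139), without CUS replicate 2 (2.36, adjusted p = 0.184) and without the filter on low counts (2.19, adjusted p = 7.9e-06), where 0.0376%, 0.076% and 0.00548% of all genes were called.

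In the other classes of nuclei, a member passed the filter in 22 of 26 classes tested, for 31 tests in all, mostly of Mbp. None was called at an FDR of 0.2, where 0.0946% of 123737 tests of all genes were, and 2 had an unadjusted p under 0.05, as had 6.06% of all. These were Mbp in oligodendrocyte precursor-like nuclei, with a log2 fold change of -1.17 (95% interval -2.09 to -0.24, adjusted p = 0.718, edgeR), and Mbp in an unnamed cluster led by Fyb2, with -0.98 (-1.84 to -0.12, adjusted p = 0.99). Mbp had 75 UMIs in all in the precursor-like nuclei of the 8 mice. In microglia-like nuclei all 9 genes were tested, from -0.41 (Ugt8a) to 0.85 (Cldn11), with no call.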

How the data were processed

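Bulk counts per gene and sNucDrop-seq UMI counts per gene and barcode were deposited by the authors without normalization, from reads mapped to mm10 (STAR, Seurat and edgeR are named in the submitters' notes). For sNucDrop-seq the study's methods name GENCODE vM13 and the use of exonic and intronic reads on the strand of the gene. For the bulk counts neither is given in the sources used here. Here a barcode was kept if it held 600 to 5000 genes, if less than 5% of its UMIs were mitochondrial, and if Scrublet in scanpy 1.11.5 (expected rate 0.1) scored it no higher than 0.2, which left out 15.1%. Nuclei were clustered with Seurat 5.3.0 at a resolution of 1 without the 9 genes. A cluster was named from at least 3 markers enriched 1.5-fold in 5% of its nuclei, with 2 among its 10 leading genes. Counts were tested with edgeR 4.0.16 in R 4.3.3 (TMM, quasi-likelihood, Benjamini-Hochberg over all genes tested), on genes passing filterByExpr in bulk and on genes with summed UMIs over 10% of the nuclei otherwise. DESeq2 1.42.0 was an alternative. CPM values per mouse use TMM factors, and those per class do not. The study fitted a batch term to single nuclei, and none was used here because the labels do not tie a mouse to a batch. Nothing says that mice were littermates, and each mouse is 1 replicate. Whether replicate numbers pair the mice is not given and was not tested (correlations of same-numbered mice of 0.03 to 0.27 in bulk). No library was a copy of another (chi-square per degree of freedom of at least 2.91 within groups).

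Members and lists were chosen with earlier results of these data known. Named genes are the 9 members, the 3 largest changes of each list, the 5 genes most like the members and Sox10, apart from a few that are not reported here. The other cholesterol synthesis genes called, Tcf7l2, Rtn4, Bcas1, Lhfpl3 and genes outside this rule were named after their values were seen. Each fit was first run on simulated counts in which 200 genes changed by a log2 fold change of 1. It recovered 86.5% of them in bulk, 100% over all kept nuclei and 54% in mature nuclei. False calls were 4.42%, 23.7% and 12.9% of the calls. Smaller changes were not simulated.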

Additional observations from a re-analysis of the deposited data

Results flagged for a closer look

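Values of the 9 genes, their sum and the share of mature nuclei were searched for a mouse far from the others of its group, in 62 groups of 4 or 5 mice, where chance alone gives about 1 in 20. In 4 groups a mouse stood apart. Mog over all kept nuclei was 33.9 CPM in CUS replicate 1 and 20.4 to 20.5 in the other 3 CUS mice. In mature oligodendrocyte-like nuclei 1 mouse, control replicate 1 with 26 nuclei, was the highest for 3 genes. Mbp was 7125 CPM there and 3375 to 3884 in the other 3 control mice, Mobp 2747 against 1261 to 1368, and Mog 2547 against 1257 to 1408.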

How the results depend on the processing

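In bulk RNA all 9 members stayed below 0 under every alternative run. Members called lower numbered 2 with the likelihood ratio test, with DESeq2, without a filter on low counts and with the replicate block, where 4.33%, 4.67%, 1.67% and 0.87% of all genes were called lower, and 0 to 7 with each mouse left out. Genes called in all went from 606 to 1330 with the likelihood ratio test, 1413 with DESeq2, 238 with the replicate block, and 133 to 1508 with each mouse left out. Whether the replicate numbers pair the mice was not tested. In bulk, control replicates 2 and 4 correlated best with the CUS mouse of their own number, and 1 and 3 did not. Over all kept nuclei the 1 gene called became 18 with the likelihood ratio test, 22 with DESeq2, 290 without the filter and 0 to 850 with a mouse left out, while no member was called. Mag turned to -0.063 with all deposited barcodes and -0.055 without the doublet filter, and ran from -0.15 to 0.18 with a mouse left out, Mal from -0.26 to 0.064 and Mbp from -0.25 to -0.089. In mature nuclei 0 members were called throughout, and genes called numbered 1 without the filter on low counts or on doublets and 0 to 2 with a mouse left out. Without the doublet filter Cnp turned to -0.13, Mal to -0.084 and Ugt8a to -0.17. With 1000 genes Cnp turned to -0.34, Mal to -0.083, Opalin to 0.31 and Ugt8a to -0.43, while Mbp went from -0.07 to -0.22, Mog from -0.05 to -0.50 and Sox10 to -1.36, none of them called. With a mouse left out Mbp ran from -0.19 to 0.21, Mobp from -0.015 to 0.42, Mog from -0.17 to 0.22, Cnp from -0.16 to 0.26, Mal from -0.13 to 0.32, Mag from 0.056 to 0.43, Cldn11 from 0.14 to 0.44, Opalin from -0.36 to 0.028, Ugt8a from -0.083 to 0.24 and Sox10 from -0.31 to 0.071. The difference in the share of mature nuclei ran from -0.91 to 0.37 percentage points with a mouse left out, and with 1000 genes per nucleus the shares were 0.813% and 0.38% (exact permutation p = 0.0857). Class membership also shifted by some nuclei when the linear algebra library ran with other thread and processor settings, so values of small classes are less firm than their counting intervals. The cause of these changes was not tested. Depth limits the mature class, with 16 UMIs of Ugt8a in CUS replicate 2.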
